A study of Mus musculus with 14 samples.

Results

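Chemokines are small secreted proteins that guide leukocytes along their gradients, and their receptors are G protein-coupled receptors on the cells that follow. The family is divided by the spacing of conserved cysteines into CC ligands (Ccl genes), CXC ligands (Cxcl genes) and the receptors that bind them (Ccr and Cxcr genes). In liver, hepatocytes, Kupffer cells, stellate cells and sinusoidal endothelium can secrete the ligands, while most of the receptors are carried by infiltrating leukocytes. Feeding on fat and sugar is often studied for the arrival of such cells, of which the pull of CCL2 on CCR2-bearing monocytes is the best known example.

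The genes described are those whose name begins with Ccl, Cxcl, Ccr or Cxcr and a digit, 58 of the 37681 Ensembl genes in the deposited counts of a mouse liver RNA-seq study. A diet high in fat and in sucrose (HFHS) was fed to 7 mice and one low in both (LFLS) to another 7, and 1 polyadenylated RNA library was sequenced per liver. The sources used here name no strain, sex, age, length of feeding, allele or other treatment for either diet. Libraries are named by diet and replicate. The first number of the sample titles, which the labels do not explain, was 1 for replicates 1 to 4 and 2 for replicates 5 to 7 of both diets. The 58 genes were 25 CC ligands, 13 CXC ligands, 11 CC receptors, 7 CXC receptors and 2 pseudogenes of Ccl19.

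Library totals ran from 18.2 M to 45.4 M in HFHS and from 18.3 M to 52.8 M in LFLS (M, mega). Levels are given as CPM, counts per 1 M of the library total, scaled by the trimmed mean of M-values. Hepatocyte markers summed to 54727 to 96899 CPM in HFHS and 65926 to 110024 CPM in LFLS, the highest sum of the 14 marker lists in this labelled tissue. Alb made up most of these sums, with means of 70663 CPM in HFHS and 73550 CPM in LFLS. Cps1, Apoa1 and Serpina1c had log2 fold changes (HFHS over LFLS) of -0.85, -0.54 and -0.53 (edgeR adjusted p = 0.0511, 0.0892 and 0.0974). Those of Alb and Ttr were -0.06 and 0.05. Of the 79 marker genes tested, 0 were called between the diets, and 11 had an unadjusted p under 0.05, against 2.81% and 19.6% of all tested genes. The library HFHS 1 stood apart within its diet. It had the highest HFHS sum for markers of monocytes (124 CPM, next 70.4, LFLS up to 97.6) and dendritic cells (35.8 CPM, next 23.1, LFLS up to 22.1). The same held for cholangiocytes (150 CPM, next 75.1, LFLS up to 74.3) and stellate cells (508 CPM, next 365, LFLS up to 368). Single genes made up most of 2 of these HFHS 1 sums, Lyz2 (95.8 CPM) for monocytes and Spp1 (141 CPM) for cholangiocytes. The other cholangiocyte genes were mixed. Krt19, Krt7 and Sox9 had higher maxima in LFLS than in HFHS, and Epcam and Cldn7 had higher maxima in HFHS. Its sums for Kupffer cells (493 CPM, next 435) and sinusoidal endothelium (439 CPM, next 334) were also highest in HFHS, but LFLS reached 521 and 513 CPM. Its T cell and neutrophil sums, 3.56 and 3.98 CPM, were not the highest in HFHS, where they reached 5.25 and 5.83 CPM. Its hepatocyte sum of 54727 CPM was the lowest of the 14 libraries. Exocrine pancreas genes summed to 15.9 to 424 CPM in HFHS and 18.5 to 1585 CPM in LFLS, the highest sum being that of LFLS 2. In whole liver RNA, fewer cells of a type and less RNA per cell cannot be told apart.

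Cxcl9, Cxcl10 and Ccr6 are shown with the 250 bases that precede their annotated transcription start, because promoters of chemokine genes are classical targets of NF-kB and of the interferon-activated STAT and IRF factors. Cxcl9 and Cxcl10 are the neighbours of Cxcl11 on chromosome 5, and Ccr6 has 2 annotated starts on chromosome 17. The sequences are from RefSeq on GRCm38.p6, 5′ to 3′ on the strand of the gene, and capitals mark matches to 3 motifs searched on both strands.
Cxcl9, chr5:92328080-92328329, minus strand: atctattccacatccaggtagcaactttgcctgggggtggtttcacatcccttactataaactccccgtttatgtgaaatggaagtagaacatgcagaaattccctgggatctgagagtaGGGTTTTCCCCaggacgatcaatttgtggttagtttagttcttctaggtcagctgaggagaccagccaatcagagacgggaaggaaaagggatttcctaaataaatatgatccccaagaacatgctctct
Cxcl10, chr5:92348890-92349139, minus strand: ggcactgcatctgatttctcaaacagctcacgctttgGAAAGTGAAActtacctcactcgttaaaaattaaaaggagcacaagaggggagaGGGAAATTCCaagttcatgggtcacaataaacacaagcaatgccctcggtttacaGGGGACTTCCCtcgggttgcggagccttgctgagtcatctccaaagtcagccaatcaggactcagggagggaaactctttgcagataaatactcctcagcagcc
Ccr6, first start, chr17:8235793-8236042, plus strand: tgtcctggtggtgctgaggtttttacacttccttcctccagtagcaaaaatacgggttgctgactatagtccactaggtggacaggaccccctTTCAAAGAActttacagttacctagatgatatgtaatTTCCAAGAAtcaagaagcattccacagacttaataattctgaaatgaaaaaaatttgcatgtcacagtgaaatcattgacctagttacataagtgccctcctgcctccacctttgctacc
Ccr6, second start, chr17:8242276-8242525, plus strand: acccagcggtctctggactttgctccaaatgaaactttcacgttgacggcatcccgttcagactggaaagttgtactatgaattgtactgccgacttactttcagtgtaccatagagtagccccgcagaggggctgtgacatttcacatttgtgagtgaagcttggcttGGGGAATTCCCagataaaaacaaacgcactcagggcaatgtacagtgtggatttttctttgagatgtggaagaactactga

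The motifs were the NF-kB motif (GGG, 5 bases of any kind, CC), the interferon-stimulated response element (TTTC, 2 bases of any kind, TTTC) and the gamma-activated sequence TTCNNNGAA, the site form bound by STAT factors. They were found in 45.8%, 2.98% and 7.02% of the 32851 RefSeq windows of the same length. Cxcl9 held the NF-kB motif at position -130 from the start, in overlapping matches on both strands. Cxcl10 held it at -159 and, in overlapping matches, at -104 and -103, and held an interferon-stimulated response element at -213 on the minus strand. The first Ccr6 window held a pair of gamma-activated sequences that overlapped no other match, and the second held overlapping NF-kB matches. These are matches of letters, and no binding was measured.

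Of the 58 genes, 27 passed a filter on low counts and were tested, 28 were detected below it, and 3 (Ccl19, Ccl27b and Ccl28) stood at the lowest deposited count of 1 in every library. CXC ligands were represented by 8 of 13 genes, CC ligands by 8 of 25, CC receptors by 6 of 11 and CXC receptors by 5 of 7. Levels between genes were compared as CPM per kilobase of exon (kb). Cxcl12, the homeostatic ligand of CXCR4 that stromal and sinusoidal cells secrete, had the highest level, at 39.4 ± 8.06 CPM per kb in HFHS and 43.7 ± 8.75 CPM per kb in LFLS (SD, n = 7 each). Ccl9, a mouse CC ligand of CCR1, was next at 9.29 ± 1.34 and 10.0 ± 3.0 CPM per kb (HFHS, then LFLS). Ccl6, Cxcl9 and Cxcl1 followed between 3.93 and 6.28 CPM per kb in diet means, and their library values overlapped.

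The receptors stood lower on this scale. Ccr9, the receptor of CCL25 on gut-homing lymphocytes, was the highest at 1.44 ± 0.127 CPM per kb in HFHS and 1.12 ± 0.353 CPM per kb in LFLS. The antisense gene Gm17021 shares 1932 exon bases with Ccr9, and reads of both cannot be told apart there, which limits this ranking. Cxcr5, a B cell receptor, was the lowest of the tested members that have an exon length, at 0.142 and 0.138 CPM per kb (HFHS, then LFLS).

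**Figure D1:**
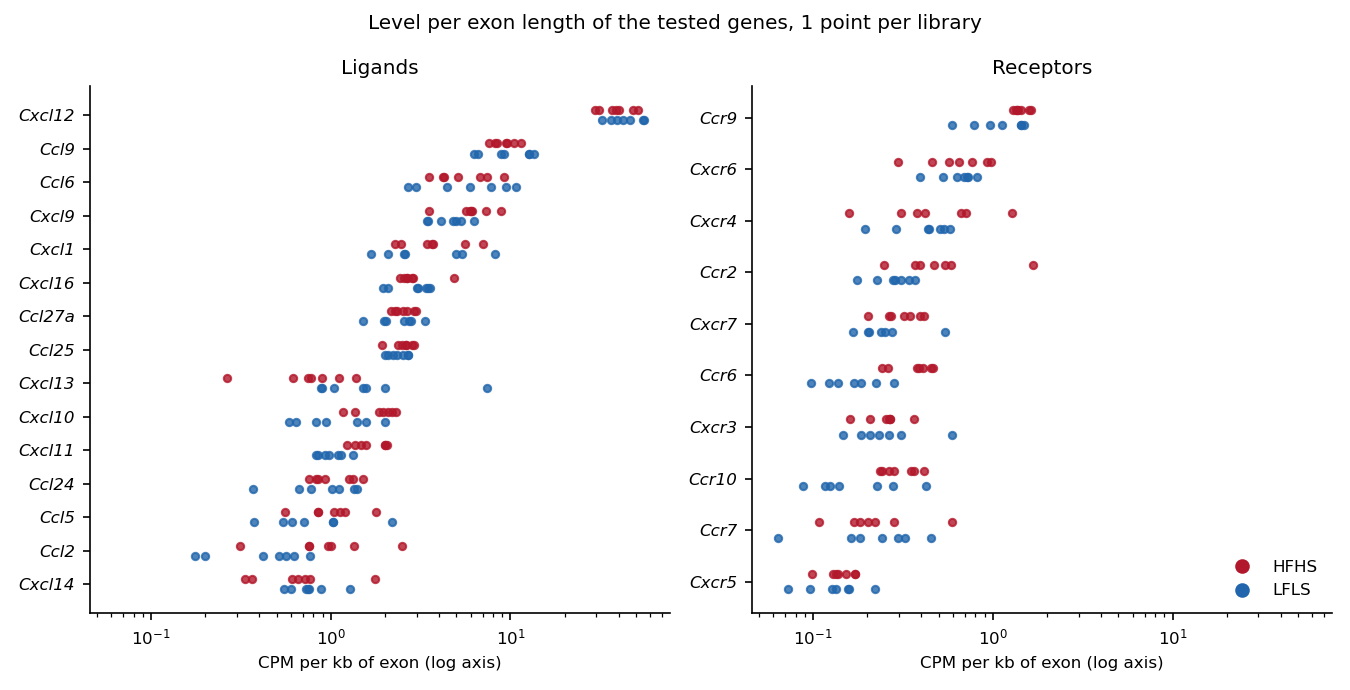
Level of the tested ligands (left) and receptors (right) in CPM per kb of exon on a log axis, 1 point per library, with HFHS points above LFLS points. Cxcl12 lies above every other ligand, and the receptors lie near or below the lower ligands.

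The comparison asked whether the HFHS diet changed the level of each gene relative to LFLS. Cxcl11 and Ccr6 rose, and no member fell, among the 27 tested (edgeR quasi-likelihood test, Benjamini-Hochberg adjusted p under 0.05 over all 17223 tested genes). Over all tested genes 2.81% were called, 1.37% higher and 1.44% lower in HFHS. Without the adjustment, 7 of the 27 had p under 0.05, 6 higher and 1 lower, against 19.6% of all tested genes. The log2 fold change was above 0 for 21 of the 27 members, against 48.7% of all tested genes, and its median was 0.10 over the members and -0.0087 over all. Without HFHS 1, 17 of the 27 were above 0, against 46.2% of all, and the median was 0.12 over the members and -0.025 over all. No member had diets that did not overlap in CPM, as 1.65% of tested genes had. Other fits called more or fewer genes over the whole table, 7.3% with DESeq2, 19% with limma voom, 8.94% with title number as a block, 0.651% without the filter, 8.49% in the libraries of title number 1 alone and 1.58% in those of title number 2. The interaction of diet with title number was called for 0.883% of genes in edgeR and 20.8% in limma voom.

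**Figure D2:**
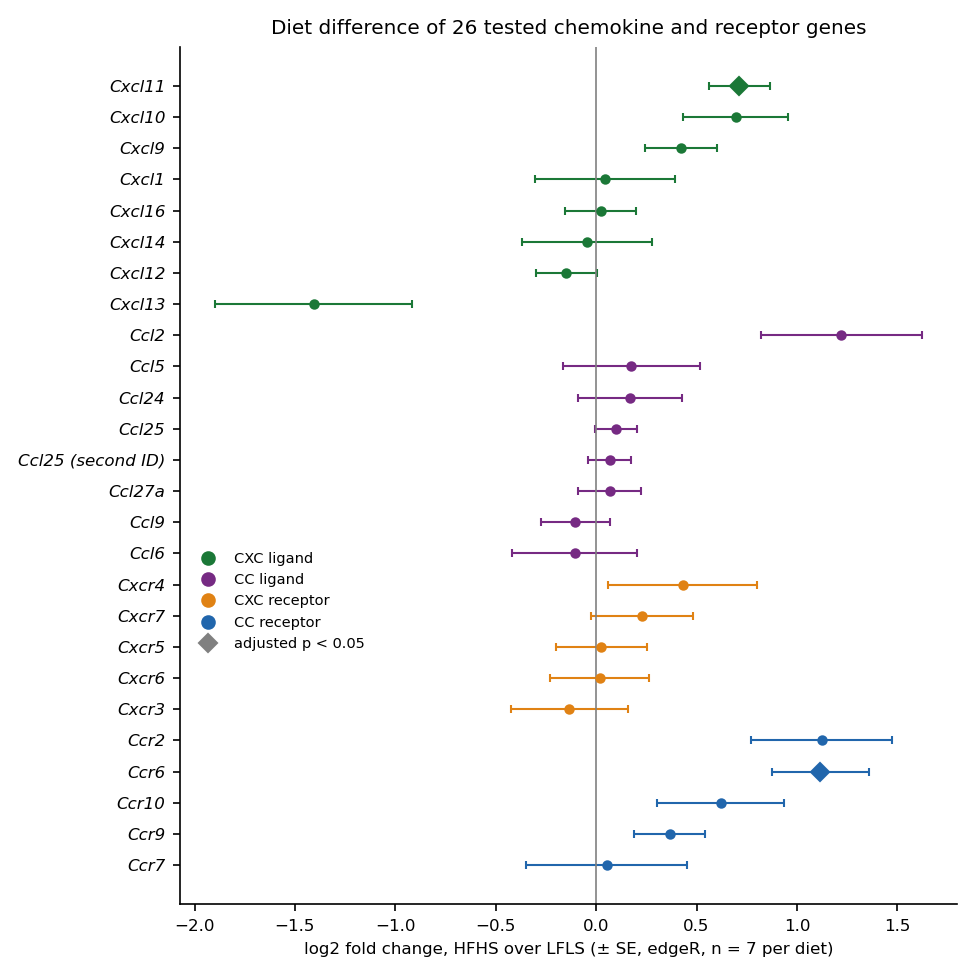
Log2 fold change of 26 tested members, HFHS over LFLS, with its standard error (edgeR, n = 7 per diet), coloured by class; diamonds mark adjusted p under 0.05. Cxcl11 and Ccr6 are the marked genes, and Cxcl13 and Ccl2 have the lowest and highest values.

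Cxcl11, Cxcl10 and Cxcl9 encode interferon-inducible ligands of CXCR3, a receptor of activated T and NK cells. Cxcl11 (ENSMUSG00000060183) had 4.70, 5.96 and 7.79 CPM (lowest, median and highest) in HFHS, against 3.12, 3.73 and 5.07 CPM in LFLS. All 7 HFHS libraries lay above the LFLS median, and the diets overlapped only in that HFHS 6 lay below LFLS 2. The counts behind these values were 101 to 293 in HFHS and 78 to 198 in LFLS. The means were 6.34 ± 1.31 CPM in HFHS and 3.88 ± 0.692 CPM in LFLS (SD, n = 7 each), a log2 fold change of 0.71 ± 0.15 (SE), or 1.64-fold, with an edgeR adjusted p of 0.0222. The log2 fold change was 0.78 in the libraries of title number 1 (adjusted p = 0.0269) and 0.62 in those of title number 2 (adjusted p = 0.0807). The fold was 0.66 to 0.78 on the log2 scale with 1 library left out, and leaving out HFHS 2 ended the call (adjusted p = 0.0614). Without the filter on low counts neither Cxcl11 (adjusted p = 0.0678) nor Ccr6 (adjusted p = 0.0674) passed.

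In the C57BL/6 reference genome Cxcl11 is known to carry a frameshift, and RefSeq on GRCm38.p6 lists it as a transcribed pseudogene. The counts measure its RNA and not a protein. The antisense gene Gm2673 shares 1582 exon bases with it, and reads of both cannot be told apart because the strand was not stated. Gm2673 had 2.30 ± 0.472 CPM in HFHS and 1.53 ± 0.449 CPM in LFLS, with a log2 fold change of 0.59 (adjusted p = 0.114).

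Cxcl10 had 2.65, 4.41 and 5.17 CPM in HFHS, against 1.32, 2.12 and 4.5 CPM in LFLS. All 7 HFHS libraries again lay above the LFLS median, but the log2 fold change of 0.70 ± 0.26 did not pass the test (adjusted p = 0.156). It was 0.39 in title number 1 and 1.33 in title number 2, and the interaction of diet with title number did not pass either (adjusted p = 0.200). The limma voom fit called Cxcl10 (log2 fold change 0.86, adjusted p = 0.0184). Art3, on the opposite strand, shares 133 exon bases with Cxcl10 and was itself higher, at 12.8 ± 1.73 CPM in HFHS and 8.47 ± 1.48 CPM in LFLS (adjusted p = 0.0216).

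Cxcl9 had 10.6, 18.2 and 26.8 CPM in HFHS, against 10.4, 14.5 and 19.0 CPM in LFLS. Its log2 fold change was 0.42 ± 0.18 (adjusted p = 0.206), with 6 of 7 HFHS libraries above the LFLS median. It was 0.26 in title number 1 and 0.72 in title number 2, where it passed the test (adjusted p = 0.0222). Their receptor Cxcr3 averaged 0.441 ± 0.109 CPM in HFHS and 0.478 ± 0.256 CPM in LFLS, with a log2 fold change of -0.13 ± 0.29. The T cell markers summed to 3.17 to 5.25 CPM in HFHS and 4.16 to 5.66 CPM in LFLS, with 5 of 9 tested, 0 called and Cd3d, Cd5, Cd8a and Cd8b1 below the filter. Their part in the values of the CXCR3 ligands was not tested.

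Cxcl13, which draws B cells through CXCR5, was the lowest of the members in log2 fold change. It had 0.305, 0.895 and 1.58 CPM in HFHS, against 1.01, 1.73 and 8.49 CPM in LFLS. All 7 HFHS libraries lay below the LFLS median, and the highest LFLS value was that of LFLS 5, with the next at 2.29 CPM. A log2 fold change of -1.41 ± 0.49 did not pass the test (adjusted p = 0.130), and it was -0.66 ± 0.32 without LFLS 5 (adjusted p = 0.235). It was -1.05 in title number 1 and -1.66 in title number 2. DESeq2 and limma voom with all libraries called Cxcl13 lower (adjusted p = 0.0409 and 0.0292). Cxcr5 had 0.473 ± 0.0855 CPM in HFHS and 0.460 ± 0.159 CPM in LFLS. Bcl9l, on the opposite strand, shares 110 exon bases with Cxcr5 and stood at 40.1 ± 3.46 CPM in HFHS and 48.9 ± 7.19 CPM in LFLS, and reads of both cannot be told apart.

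Cxcl12 had 241, 317 and 420 CPM in HFHS, against 263, 348 and 450 CPM in LFLS, and the diets overlapped over most of their range. Its log2 fold change was -0.15 ± 0.15 (adjusted p = 0.615). Its receptor Cxcr4 had 0.285, 0.763 and 2.30 CPM in HFHS, against 0.353, 0.800 and 1.04 CPM in LFLS. HFHS 1 held the highest Cxcr4 value, and the log2 fold change was 0.43 ± 0.37 with it and 0.05 without it (adjusted p = 0.548 and 0.945).

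Cxcl1, a neutrophil attractant that signals through CXCR2, had 4.28, 6.85 and 13.2 CPM in HFHS, against 3.14, 4.86 and 15.5 CPM in LFLS. Cxcl16, a ligand of CXCR6 made as a membrane-bound protein, had 7.34, 8.02 and 14.6 CPM in HFHS, against 5.90, 9.25 and 10.8 CPM in LFLS. Both spread as widely within a diet as between diets, with log2 fold changes of 0.05 ± 0.35 for Cxcl1 and 0.02 ± 0.18 for Cxcl16 (adjusted p = 0.958 and 0.959). The signs of both changed with the library left out and with the tool. Zmynd15, on the opposite strand, shares 552 exon bases with Cxcl16.

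**Figure D3:**
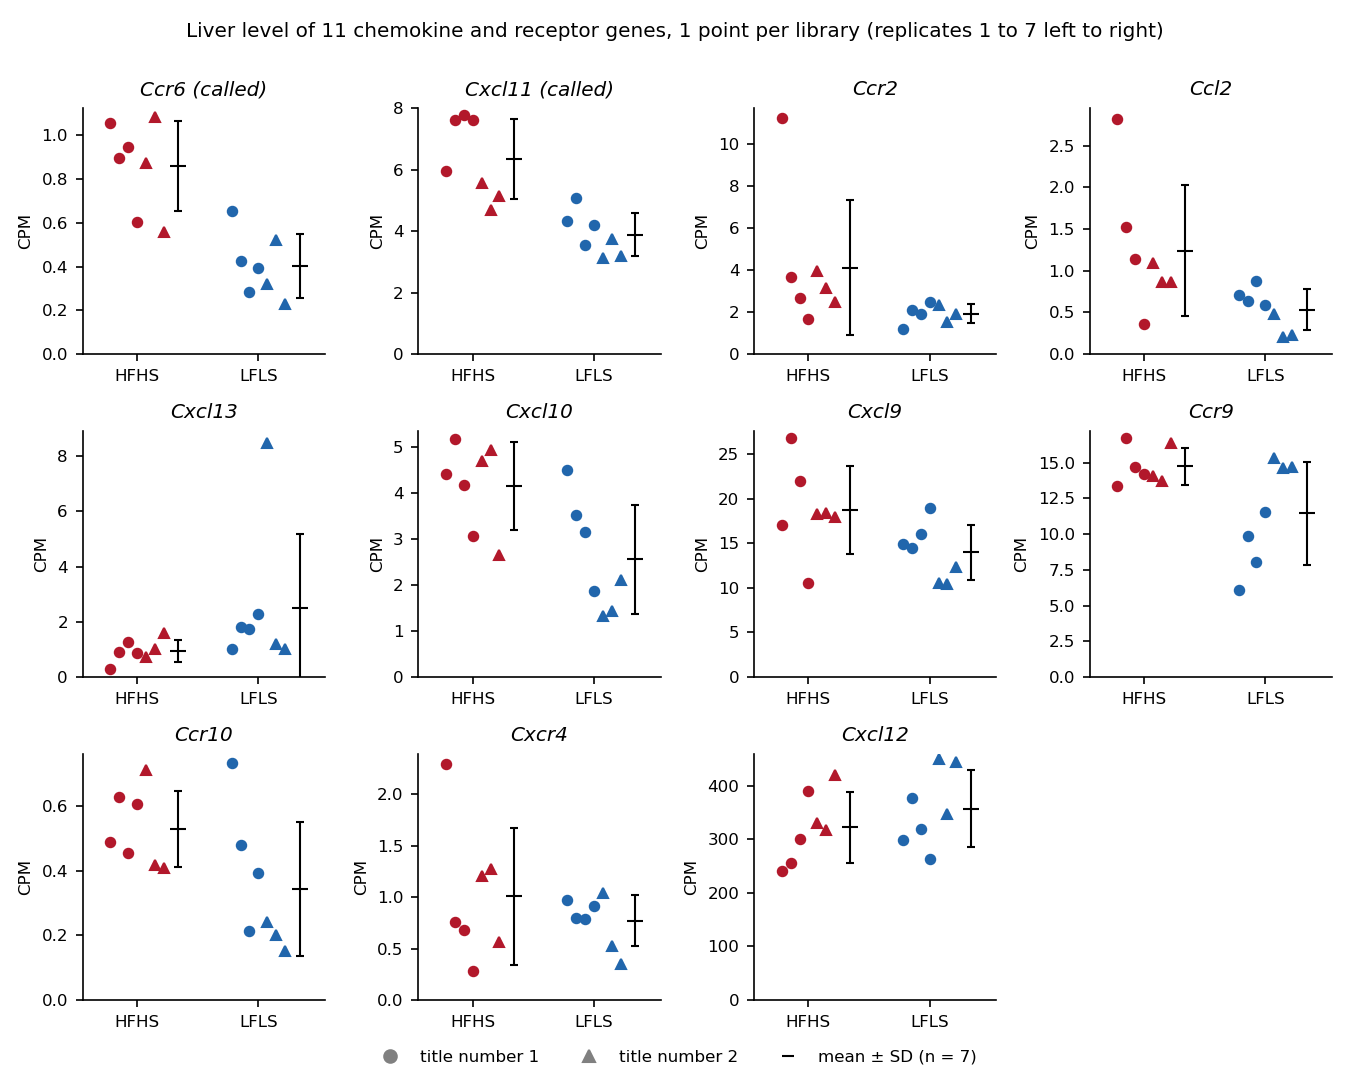
Level in CPM of 11 members in each library, HFHS left of LFLS, replicates 1 to 7 from left to right, with circles and triangles for title numbers 1 and 2 and the mean ± SD (n = 7; the lower bar of Cxcl13 in LFLS is cut at 0). HFHS 1 lies apart in Ccr2, at 11.2 CPM, and LFLS 5 in Cxcl13, at 8.49 CPM, while Cxcl11 and Ccr6 differ across most libraries.

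Among the CC ligands, Ccl2 had the highest log2 fold change of any member and did not pass the test. Ccl2 had 0.356, 1.09 and 2.83 CPM in HFHS, against 0.201, 0.589 and 0.876 CPM in LFLS. The highest value was that of HFHS 1, and 6 of 7 HFHS libraries lay above the LFLS median. Its log2 fold change was 1.22 ± 0.40 (adjusted p = 0.109), 1.08 in title number 1 and 1.65 in title number 2. It was 0.85 ± 0.35 without HFHS 1 (adjusted p = 0.232). With title number as a block it passed the test (1.26, adjusted p = 0.0371), as it did with DESeq2 (adjusted p = 0.0435).

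Ccr2, the receptor of CCL2 on inflammatory monocytes, had 1.68, 3.17 and 11.2 CPM in HFHS, against 1.18, 1.93 and 2.49 CPM in LFLS. The next HFHS library after HFHS 1 had 3.94 CPM. Its log2 fold change of 1.12 ± 0.35 did not pass the test (adjusted p = 0.0935), and without HFHS 1 it was 0.62 ± 0.21 (adjusted p = 0.148). It was 1.36 in title number 1 and 0.75 in title number 2. DESeq2 with all libraries called Ccr2 (adjusted p = 0.0269), and limma voom, which gives unusual libraries less weight, gave 0.60 (adjusted p = 0.173). The monocyte markers summed to 51.2 to 124 CPM in HFHS, highest in HFHS 1, and to 45.7 to 97.6 CPM in LFLS, with 7 of 7 tested and 0 called. Lyz2 alone held 95.8 of the 124 CPM. The log2 fold changes of the monocyte markers ran from -0.70 (Itgam) to 0.86 (S100a4), with a median of -0.11, and that of Ly6c2 was 0.19. Their part in the values of Ccl2 and Ccr2 was not tested.

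Ccl9 and Ccl6 lie side by side in the chromosome 11 cluster, between Ccl5 and Ccl3. Ccl9 had 23.1, 28.7 and 34.8 CPM in HFHS, against 19.1, 28.2 and 41.2 CPM in LFLS, with a log2 fold change of -0.10 ± 0.17 (adjusted p = 0.775). It was 0.36 in title number 1 (adjusted p = 0.172) and -0.60 in title number 2, where it passed the test as lower in HFHS (adjusted p = 0.0344). The difference between the numbers was -0.95 ± 0.21 (number 2 minus number 1), which just missed the threshold in edgeR (adjusted p = 0.0523) and passed it in limma voom (adjusted p = 0.0159). Ccl6, also a mouse ligand of CCR1, had 6.28, 9.16 and 16.6 CPM in HFHS, against 4.84, 10.7 and 19.3 CPM in LFLS. Its log2 fold change was -0.11 ± 0.31 (adjusted p = 0.879).

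Ccl25, which attracts CCR9-bearing lymphocytes to the thymus and small intestine, had the smallest SE of the tested ligands. It had 14.3, 19.5 and 21.6 CPM in HFHS, against 14.8, 17.3 and 20.1 CPM in LFLS, and a log2 fold change of 0.10 ± 0.10 (adjusted p = 0.623). A second Ensembl identifier with the same name held 81.6% to 88.8% of the count of the first in each library, so both were tested but are not independent. Elavl1, on the opposite strand, shares 204 exon bases with Ccl25. Ccr9 had 13.3, 14.2 and 16.7 CPM in HFHS, against 6.08, 11.5 and 15.3 CPM in LFLS. The 4 LFLS libraries of title number 1 were lower than every HFHS library, and the 3 of title number 2 lay among them. The log2 fold change was 0.37 ± 0.18 overall (adjusted p = 0.269), 0.75 in title number 1 (adjusted p = 0.0448) and -0.01 in title number 2 (adjusted p = 0.967). The interaction did not pass in edgeR (adjusted p = 0.0962) and passed in limma voom (adjusted p = 0.0102). Gm17021, on the opposite strand, shares 1932 exon bases with Ccr9 and had 14.5 ± 1.87 CPM in HFHS and 13.3 ± 4.43 CPM in LFLS. Gm17200, on the same strand, shares 269 exon bases with Ccr9 and had 10.1 ± 1.08 CPM in HFHS and 7.31 ± 2.67 CPM in LFLS (log2 fold change 0.47, adjusted p = 0.227). Over the shared bases, reads of Ccr9 and of these genes cannot be told apart.

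Ccr6 marks B cells, type 17 T cells and some dendritic cells, and its known ligand is CCL20. Ccr6 (ENSMUSG00000040899) had 0.560, 0.895 and 1.08 CPM in HFHS, against 0.227, 0.393 and 0.655 CPM in LFLS. The counts behind these values were 11 to 52 in HFHS and 8 to 25 in LFLS, which limits their precision. All 7 HFHS libraries lay above the LFLS median, and HFHS 4 and HFHS 7 lay below LFLS 1. The means were 0.860 ± 0.205 CPM in HFHS and 0.404 ± 0.147 CPM in LFLS (SD, n = 7 each), a log2 fold change of 1.12 ± 0.24, or 2.17-fold, with an edgeR adjusted p of 0.0252.

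In Ccr6 the log2 fold change was 1.03 in title number 1 (adjusted p = 0.0647) and 1.32 in title number 2 (adjusted p = 0.125). The call ended without HFHS 1, HFHS 2, HFHS 5, HFHS 6, LFLS 3 or LFLS 4, with adjusted p up to 0.0604, while the log2 fold change lay between 1.01 and 1.30. Leaving out HFHS 1 and LFLS 2 together gave an adjusted p of 0.0878. Ccl20 never passed a count of 1 in HFHS or 2 in LFLS. The B cell markers summed to 6.0 to 9.59 CPM in HFHS and 4.48 to 9.49 CPM in LFLS, with 8 of 8 tested and 0 called. Their log2 fold changes ran from -0.18 (Cd79b) to 0.99 (Cr2, adjusted p = 0.0826), with a median of 0.06. Cr2 and Ms4a1 had an unadjusted p under 0.05, and Fcer2a (-0.05), Pax5 (-0.02), Blk (0.02) and Cd79a (0.10) lay close to 0. The dendritic cell markers, 6 of 7 tested and 0 called, had a median log2 fold change of 0.24. That of the T cell markers, 5 of 9 tested and 0 called, was -0.13. The part of the markers of these 3 cell types in the Ccr6 values was not tested.

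**Figure D4:**
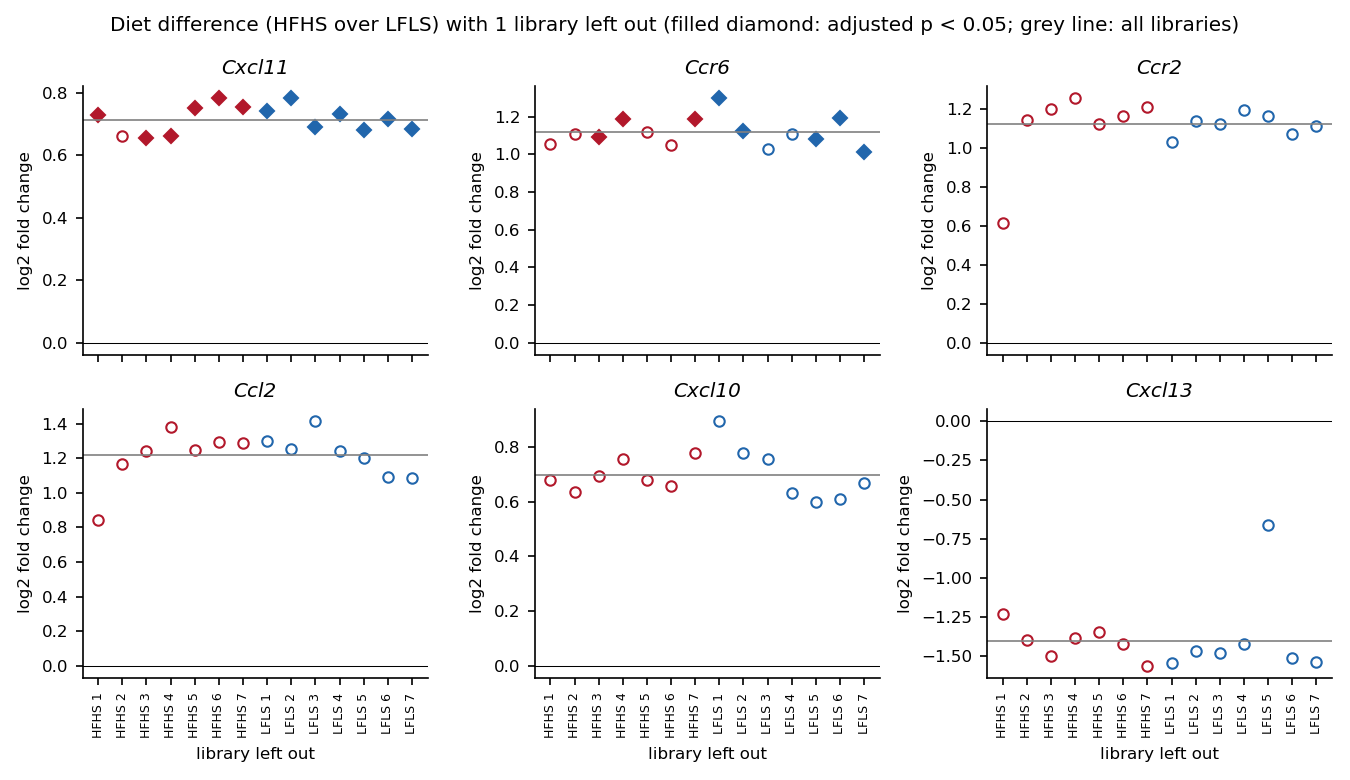
Log2 fold change (HFHS over LFLS) of 6 members with each library left out in turn, filled diamonds where the adjusted p was under 0.05 and a grey line for all libraries. Ccr6 moved between 1.01 and 1.30 while its call came and went, Ccr2 moved mainly without HFHS 1 and Cxcl13 mainly without LFLS 5.

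Ccr10, a receptor of CCL27 and CCL28 on skin and mucosal lymphocytes, had 0.407, 0.488 and 0.711 CPM in HFHS, against 0.151, 0.240 and 0.733 CPM in LFLS. All 7 HFHS libraries lay above the LFLS median, and LFLS 1 held the highest value of all. It differed by 0.62 ± 0.32 on the log2 scale (adjusted p = 0.294), and by 0.97 ± 0.26 without LFLS 1 (adjusted p = 0.0559).

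The other 9 tested members had log2 fold changes of -0.13 to 0.23 and adjusted p of 0.648 to 0.979. They were the ligands Ccl5, Ccl24, Ccl27a and Cxcl14 and the receptors Ccr7, Cxcr3, Cxcr5, Cxcr6 and Cxcr7, the scavenging receptor of CXCL12. Ccl5, made by activated T and NK cells, averaged 1.01 ± 0.368 CPM in HFHS and 0.887 ± 0.580 CPM in LFLS. Cxcr6, the receptor of CXCL16 on liver-patrolling NKT cells, averaged 1.28 ± 0.474 CPM in HFHS and 1.24 ± 0.273 CPM in LFLS. Ccr7, which guides cells to lymph nodes, averaged 0.497 ± 0.318 CPM in HFHS and 0.487 ± 0.249 CPM in LFLS. Without HFHS 1 the log2 fold change of Ccr7 was -0.40 ± 0.36, against 0.05 ± 0.40 with it (adjusted p = 0.585 and 0.958).

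**Figure D5:**
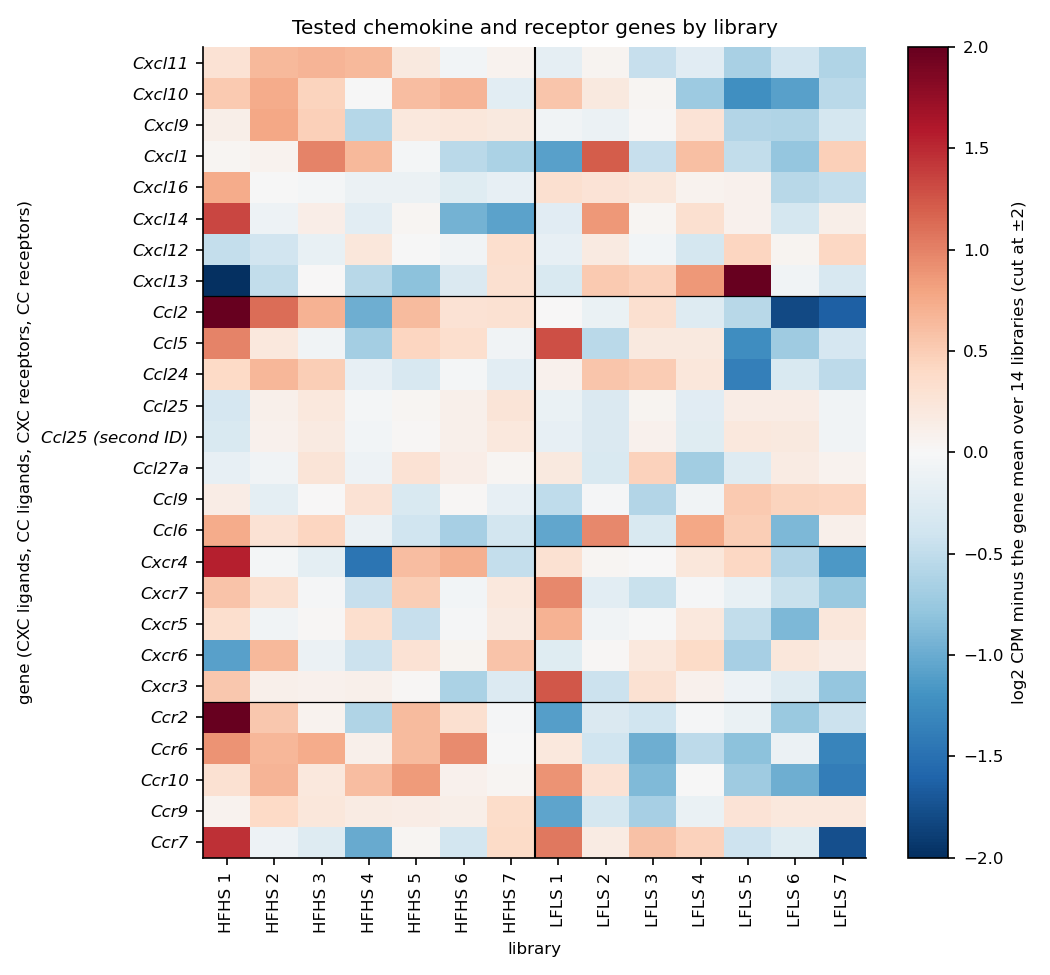
Log2 CPM of 26 tested members in each library minus the mean of the gene over the 14 libraries, HFHS libraries left of LFLS libraries, with colours cut at ±2. HFHS 1 is red for Ccr2, Ccl2, Cxcr4, Ccr7 and Cxcl14, and Cxcl11 and Ccr6 are mostly red in HFHS and mostly blue in LFLS.

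HFHS 1 was the highest of the 14 libraries for 7 of the 27 tested members, against 12.5% of all tested genes, and LFLS 1 for 5, against 23.8%. Several inflammatory ligands were among the 28 members below the filter. Of these, 18 never passed a count of 10, and their median highest count was 7. Ccl3 and Ccl4, known as macrophage inflammatory proteins, had highest counts of 24 and 33 in HFHS and of 9 each in LFLS. Cxcl2, a neutrophil attractant, reached 36 in HFHS and 16 in LFLS, and Ccr1, the receptor of CCL6 and CCL9, reached 59 in HFHS and 13 in LFLS. Each of these HFHS maxima was in HFHS 1. Ccl7, a second ligand of CCR2, had the smallest p of these genes when fitted without the filter. It did not pass (log2 fold change 1.5 ± 0.41, edgeR adjusted p = 0.109). The highest count of Ccl7 was 25 in HFHS, that of HFHS 1 with the next at 9, and 5 in LFLS. Reads of Ccl21a, Ccl21b and Ccl21c, of Ccl27a and Ccl27b, and of Ccl19 and its pseudogenes may be split among near-identical copies.

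In the authors' deposited table no member had an adjusted p under 0.05, and the smallest was 0.73, for Ccr6. Of the unadjusted values in the authors' deposited table, 3 members were under 0.05, Ccr6 (listed as 0), Cxcl11 (0.02) and Ccl7 (0.03).

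Genes outside the naming rule that act with chemokines were described by 4 lists of 82 measured genes, of which 72 were tested and 0 were called (9 had an unadjusted p under 0.05; median log2 fold change -0.04), against 2.81% called and 19.6% at that unadjusted p over all tested genes. Among other chemoattractants and atypical receptors, 13 genes were tested. Rarres2, the precursor of the attractant chemerin, had 317 ± 22.9 CPM in HFHS and 250 ± 45 CPM in LFLS (log2 fold change 0.35, adjusted p = 0.113). Cmtm6, of the same list, had 98.5 ± 16.6 CPM in HFHS and 123 ± 25.3 CPM in LFLS (log2 fold change -0.32, edgeR adjusted p = 0.208). Ccrl1, an atypical receptor that removes CCL19, CCL21 and CCL25, was abundant at 122 ± 11 CPM in HFHS and 130 ± 19.6 CPM in LFLS. Among the inducers of chemokine transcription, 20 genes were tested. Tlr4, the receptor of bacterial lipopolysaccharide, had 6.17 ± 1.31 CPM in HFHS and 4.13 ± 0.939 CPM in LFLS (log2 fold change 0.58, adjusted p = 0.0785). Its highest HFHS value, 8.78 CPM, was that of HFHS 1, and its medians were 5.63 CPM in HFHS and 4.45 CPM in LFLS. Irf7, an interferon regulatory factor, had 26.0 ± 2.83 CPM in HFHS and 34.4 ± 8.04 CPM in LFLS (log2 fold change -0.41, adjusted p = 0.112). Ifng, Tnf, Il6 and Il17a were below the filter.

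Among the signalling genes behind the receptors, 23 were tested, and Gng2, a G protein subunit, had the smallest p at 2.71 ± 0.660 CPM in HFHS and 1.91 ± 0.413 CPM in LFLS (log2 fold change 0.51, adjusted p = 0.139). Among the genes of leukocyte adhesion, 16 were tested, and Vcam1, the endothelial ligand of leukocyte integrins, had 24.6 ± 8.91 CPM in HFHS and 16.9 ± 4.38 CPM in LFLS (log2 fold change 0.55, adjusted p = 0.186). The highest HFHS values of Gng2 (4.15 CPM) and Vcam1 (41.7 CPM) were those of HFHS 1. Their medians were 2.52 and 23.4 CPM in HFHS, against 2.04 and 15.9 CPM in LFLS.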

How the data were processed

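Liver RNA of 14 mice was extracted with Tri Reagent, made into TruSeq libraries from polyadenylated RNA and sequenced as 50 base single reads, per the labels' protocols. Per the submitters' processing notes, the tools were Bowtie, CASAVA 1.8, DESeq and TopHat and the build was mm9. The sources used here name no counting tool or annotation. Whole-number counts of 37681 Ensembl genes were deposited, none below 1, and 11120 genes stand at 1 in every library. The authors' deposited p-values and adjusted p-values, which appear rounded, were only quoted, and gene names came from the same table. The diets were compared with edgeR 4.0.16 (quasi-likelihood F test, TMM, default filter by diet, no covariates) in R 4.3.3, fitted on the whole table, with genes called at a Benjamini-Hochberg adjusted p under 0.05. The SE is the log2 fold change divided by the square root of F. DESeq2 1.42.0 and limma 3.58.1 (voom with quality weights), other scalings, filters, blocks and left-out libraries were alternatives.

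In counts simulated for HFHS against LFLS over 17139 tested genes, 81 of 100 genes changed 2-fold and 100 of 100 changed 4-fold were recovered. Among the unchanged genes, 10 were called. The simulated spread followed the trend with level and held no spread of single genes, outlying library or title number. The recovered shares therefore do not give the power for the members. Exon lengths and overlaps came from an annotation on GRCm38, and names, neighbours and promoters from RefSeq on GRCm38.p6, where 38 members (16 of them tested) had a promoter row; no coordinates were converted. Values are given for every called member, the 10 further members with the smallest p and the 10 with the highest mean, and for up to 3 genes of each other list; 1 member counted among the tested is not reported here. The members and lists were chosen with earlier results of these data known. The labels do not say whether the title numbers mark a batch. The p-values measure the spread between these samples, 1 per mouse by the design text.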

Additional observations from a re-analysis of the deposited data

Results flagged for a closer look

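In 8 of 54 sets of 7 libraries tested, the highest library lay apart from the others of its diet by Dixon's criterion. Its nominal share of 5% holds for independent and normally spread values. These CPM values were not shown to be so, and the sets share libraries, so 5% may not be the share by chance here. In HFHS 1, Ccr2 had 11.2 CPM (next 3.94), Ccr7 had 1.18 CPM (next 0.560), Cxcl14 had 3.23 CPM (next 1.40) and Cxcl16 had 14.6 CPM (next 8.69). In LFLS 1, Ccl5 had 2.09 CPM (next 0.983), Cxcr3 had 1.02 CPM (next 0.536) and Cxcr7 had 1.81 CPM (next 0.916). In LFLS 5, Cxcl13 had 8.49 CPM (next 2.29). LFLS 1 was the highest of the 14 libraries for 23.8% of all tested genes. The log2 fold change of Ccl5 was 0.17 ± 0.34 with LFLS 1 and 0.54 ± 0.28 without it (edgeR adjusted p = 0.813 and 0.302), and that of Cxcr3 was -0.13 ± 0.29 and 0.18 ± 0.23 (adjusted p = 0.837 and 0.726). That of Cxcr7 was 0.23 ± 0.25 with LFLS 1 and 0.51 ± 0.19 without it (adjusted p = 0.648 and 0.148). That of Cxcl14 was -0.05 ± 0.32 with HFHS 1 and -0.45 ± 0.24 without it (adjusted p = 0.954 and 0.339).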

How the results depend on the processing

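Of 27 tested members, 2 were called higher and 0 lower, where 2.81% of all tested genes were called. The counts higher and lower were 4 and 1 with DESeq2 (7.3% of all tested genes called) and 4 and 1 with limma voom (19% of all). They were 0 and 0 without the filter (55 members fitted, 0.651% of all). With at least 1 CPM in 7 libraries, where Ccr6 was not tested, they were 1 and 0 (3.37% of all). In title number 2 alone they were 1 and 1 (1.58% of all). Leaving out HFHS 1 and LFLS 2 together, an alternative chosen after seeing the data, gave 1 and 0 (0.697% of all). Leaving out 1 library gave 0 to 2 higher and 0 lower, while calls over all genes ran from 133 (0.766%, without HFHS 2) to 853 (4.89%, without LFLS 6), against 484. The 2 calls were Cxcl11 and Ccr6 under either other scaling and with 1 subtracted from every count, where 2.81% to 3.08% of all tested genes were called. Counting members above the lowest count in 1 library as expressed gave 55. The interaction of diet with title number passed for 0 of the 27 members in edgeR and 3 in limma voom (Ccl9, Ccr9 and Ccr7). Over all tested genes it passed for 0.883% in edgeR and 20.8% in limma voom.

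With title number as a replicate block, 3 members were called higher and 0 lower, Ccl2 being added, and all calls came to 1540 against 484. With the title's number and letter as the block, 2 and 0 were called, where 3.47% of all tested genes were called. These labels are not shown to pair mice: the deviations of same-labelled libraries correlated at -0.07 to 0.41 over the 7 pairs, and by title number alone at a mean of 0.129, against -0.134 between numbers. Because deviations were taken from the mean of each diet, the last 2 values are tied to each other and are not separate comparisons.

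Of the log2 fold changes of named members under all alternatives, 421 kept direction and side of the threshold, 10 gained a call, 13 lost one and 20 changed sign. The sign changed for Ccr9 in title number 2 alone (-0.011), for Ccl9 (0.36) and Ccl6 (0.091) in title number 1 alone, and for Cxcl1 with limma voom (-0.20) and in title number 2 alone (-0.24). For Cxcl16 it changed with limma voom (-0.097), without the filter (-0.00098), in title number 1 alone (-0.0085) and without HFHS 1 and LFLS 2 (-0.096). With 1 library left out, Ccl6 ran from -0.26 to 0.069, Cxcl16 from -0.14 to 0.077 and Cxcl1 from -0.15 to 0.33. The cause was not tested. Depth limits the 28 members below the filter, whose median highest count was 7; fitted without it, they gave no call.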

Other observations

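Of several known ligand and receptor pairs, the gene of 1 side alone passed the filter. Ccr6 was tested and its ligand gene Ccl20 was not, while Cxcl1 was tested and its receptor gene Cxcr2 reached counts of only 11 in HFHS and 10 in LFLS. Ccl9 and Ccl6 were among the highest ligands per kb, and Ccr1 did not pass the filter. Ccr7 was tested, but the genes of its ligands, Ccl19 and the copies of Ccl21, never passed a count of 6 in HFHS or 3 in LFLS. Both sides were tested for Cxcl9, Cxcl10 and Cxcl11 with Cxcr3, of which Cxcl11 was called. Both sides were also tested for pairs such as Ccl2 with Ccr2, Cxcl12 with Cxcr4 and Cxcr7, and Cxcl13 with Cxcr5. The same held for Cxcl16 with Cxcr6, Ccl25 with Ccr9 and Ccl27a with Ccr10. The edgeR test without a block called none of the genes of these pairs. Of these, Ccl2, Ccr2, Cxcl13 and Ccr9 each passed under at least 1 other tool, block or title number alone.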
